A study of Mus musculus with 6 samples.

Results

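Enzymes that build triglyceride from acyl-CoA and a glycerol backbone, and monoglyceride lipase (Mgll), which breaks down the monoacylglycerol that one of them uses, were followed through the liver of mice on a fast-food diet with and without canertinib, a drug that binds EGFR and its relatives irreversibly and blocks their kinase activity. The 10 genes, chosen by their role, were Gpam, Agpat2, Agpat3, Lpin1, Lpin2, Lpin3, Dgat1, Dgat2, Mogat1 and Mgll, out of 18193 genes with a probe set of their own on the Affymetrix mouse genome array used. All 10 were found, on 23 probe sets, and each gene was read from the probe set with the highest mean signal over the 6 arrays. A floor was set at a signal of 221.4, the 50th percentile of all values, below which a signal was taken as dim. Of the 10 genes, 9 lay above it on all 6 arrays. Lpin3 lay below it on every array, with signals from 50.6 to 144, and no difference is given for it.

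Male C57BL6/J mice, an inbred strain, were 6 to 8 weeks old when the diets began. The fast-food diet with canertinib (FFD+EGFRi), the fast-food diet without it (FFD) and chow were compared after 2 months and, in a separate study, after 5 months. By weight 21% of the fast-food diet was fat and 34% was sucrose. It also contained 0.2% cholesterol, and the water carried 18.9 g/L glucose and 23.1 g/L fructose. In the 2-month study canertinib was mixed into the food throughout, at an estimated daily 80 mg/kg. Over the last 5 weeks of the 5-month study, intraperitoneal injections of 80 mg/kg were given on 5 days a week, FFD mice received PBS by the same schedule, and the labels name no injection for chow mice. Each of the 6 groups was 1 array of RNA pooled from 3 to 4 livers. No difference within a study therefore has a replicate check, an error or a test. The labels used here give no feeding state or hour at which livers were taken.

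In the glycerol-3-phosphate pathway a glycerol backbone takes up a fatty acid to form lysophosphatidate, then another to form phosphatidate. Lipins remove the phosphate to give diacylglycerol, and a diacylglycerol acyltransferase adds the last fatty acid. Monoacylglycerol acyltransferase reaches diacylglycerol by another way, from monoacylglycerol, the substrate that monoglyceride lipase, the product of Mgll, breaks down. Triglyceride made in this way is stored in hepatocyte lipid droplets or exported in very low density lipoprotein.

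Mogat1, Mgll and Gpam had their highest signal on the FFD array in both studies, and Lpin1 had the widest range of all. The promoters of these genes are shown, each as the 300 bases from 250 before to 50 after a gene start in RefSeq (GRCm38.p6). Dgat1 was also highest on the FFD array, by 977.6 against 977.5 on chow at 2 months and 921 against 912 on FFD+EGFRi at 5 months. No promoter was listed for it. Promoters were listed for 8 of the 10 genes. Capitals mark matches to AGGTCA (the core element of nuclear receptors), CACGTG (E-box), GGGCGG (GC box), TATAAA or CCAAT, on either strand. For Gpam and Mgll the first of 2 listed windows is printed.
Mogat1, chr1:78510810-78511109, plus strand: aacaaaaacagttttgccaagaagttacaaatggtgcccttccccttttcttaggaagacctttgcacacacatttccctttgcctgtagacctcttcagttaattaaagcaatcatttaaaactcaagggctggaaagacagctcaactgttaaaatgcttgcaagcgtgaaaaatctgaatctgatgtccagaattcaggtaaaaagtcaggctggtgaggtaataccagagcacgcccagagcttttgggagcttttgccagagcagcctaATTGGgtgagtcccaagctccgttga
Mgll, chr6:88724162-88724461, plus strand: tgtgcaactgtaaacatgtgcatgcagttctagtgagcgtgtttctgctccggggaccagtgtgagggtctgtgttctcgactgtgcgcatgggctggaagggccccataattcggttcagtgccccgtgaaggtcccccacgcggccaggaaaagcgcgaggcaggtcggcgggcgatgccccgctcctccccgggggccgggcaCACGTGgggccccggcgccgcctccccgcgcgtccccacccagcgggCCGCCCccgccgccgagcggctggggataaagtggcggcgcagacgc
Gpam, chr19:55127189-55127488, minus strand: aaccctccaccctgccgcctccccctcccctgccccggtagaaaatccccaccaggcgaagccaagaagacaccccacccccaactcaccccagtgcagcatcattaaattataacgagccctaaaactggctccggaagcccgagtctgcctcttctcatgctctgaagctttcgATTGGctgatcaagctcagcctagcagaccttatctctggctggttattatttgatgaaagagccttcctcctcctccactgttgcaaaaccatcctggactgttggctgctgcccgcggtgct
Lpin1, chr12:16610917-16611216, minus strand: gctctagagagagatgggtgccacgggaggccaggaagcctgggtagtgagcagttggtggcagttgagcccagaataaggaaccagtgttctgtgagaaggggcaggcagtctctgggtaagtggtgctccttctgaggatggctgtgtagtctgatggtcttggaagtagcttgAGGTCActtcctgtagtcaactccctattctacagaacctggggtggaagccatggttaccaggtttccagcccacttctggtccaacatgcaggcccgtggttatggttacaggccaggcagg
The Mogat1 window held 43.7% G and C and, of the motifs searched, a CCAAT box 25 bases into the transcript on the minus strand. The Mgll window held 70.0% G and C, an E-box at -44 and a GC box at 4 on the minus strand. The Gpam window had a CCAAT box at -74 on the minus strand, and Lpin1 had AGGTCA at -74. Over all 32851 listed promoter windows, AGGTCA was found in 16.3%, the E-box in 7.15%, the GC box in 35.7%, TATAAA in 13.6% and CCAAT in 37.4%. AGGTCANAGGTCA, a direct repeat with 1 base between, was found in 0.0396% of all windows and in none of the 4 printed. Only CCAAT was in 2 of the 4 printed windows, and each other motif was in 1 or none. This count depends on the windows printed. The second Gpam window held AGGTCA at -196 and a GC box at -16 on the minus strand. The second Mgll window held a GC box at -121 on the minus strand. A match describes letters, not binding.

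The livers expressed hepatocyte markers strongly. All 6 hepatocyte markers measured lay above the floor on every array, and their summed signal ran from 222469 to 399211. Of 4 fat cell markers read, Adipoq and Lep were below the floor on every array. Retn, with signals from 668 to 928, and Fabp4, from 342 to 2503, were above it on every array. The chow arrays of 5 and 2 months, which differ in age and study, give a background for the size of a difference: 2.6% of the 13988 genes above the floor on at least 1 array, called measured here, differed 2-fold or more. As shares of all measured genes, 1.28% were higher and 1.32% lower at 5 months, and among the 9 genes 0 were higher and 1, Lpin1, was lower by that much. The log2 ratio of the 3' to the 5' control probe set of actin, a sign of RNA integrity, was 1.19 and 1.12 on the FFD+EGFRi arrays, 0.85 and 0.98 on the FFD arrays and 0.94 and 0.85 on the chow arrays. The same ratio for Gapdh was -0.20 and -0.14 on the FFD+EGFRi arrays, -0.30 and -0.22 on the FFD arrays. On the chow arrays it was -0.18 and -0.09, so the FFD+EGFRi arrays were highest for actin but not for Gapdh.

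The first comparison asked how the fast-food diet changed transcripts of triglyceride synthesis. The FFD array held more Mogat1, Mgll, Gpam and Agpat3 transcript than chow in both studies, more Agpat2 mainly at 2 months, and about the same amount of Dgat1 and Dgat2. Lpin1 differed in opposite directions at the 2 times. At 2 months 2 of the 9 measured genes, Agpat2 and Mogat1, were at least 2-fold higher, against 1.98% of all measured genes, and none was at least 2-fold lower, against 1.55%, with 3.53% in either direction. With the mean over probe sets Lpin1, at -1.13, was also 2-fold lower. At 5 months 1 of the 9, Lpin1, was at least 2-fold higher, against 2.72%, and none was at least 2-fold lower, against 1.83%, with 4.55% in either direction. The median log2 difference of the 9 genes was 0.54 at 2 months and 0.40 at 5 months, beside 0.00 over all measured genes at both times. Here and below, the measured set includes genes at the floor on both arrays compared, whose difference is 0 by construction. The 9 genes lay above the floor on every array, so that set is not like them in this.

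Mogat1 encodes monoacylglycerol acyltransferase 1, which is scarce in normal mouse liver and abundant in steatotic liver. Its signal was 438 on the FFD+EGFRi array, 1086 on the FFD array and 494 on the chow array at 2 months, and 383, 987 and 538 on the FFD+EGFRi, FFD and chow arrays at 5 months. The FFD signal was the highest of the 3 in each study, and the chow and FFD+EGFRi signals lay closer to each other than to it. The log2 diet difference was 1.14 at 2 months and 0.88 at 5 months. At 2 months 1.34% of measured genes were at least as far in that direction, and at 5 months 3.67%. Mogat1 has 1 probe set here.

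Mgll encodes monoglyceride lipase, which releases the last fatty acid and glycerol in triglyceride breakdown. It read 1862 on the FFD+EGFRi array, 4491 on the FFD array and 2652 on the chow array at 2 months. At 5 months the signals were 2296 on the FFD+EGFRi array, 4454 on the FFD array and 3094 on the chow array. The order was the same in both studies, with FFD highest and FFD+EGFRi lowest. The diet difference was 1.69-fold and then 1.44-fold, and 4.25% and then 9.99% of measured genes were at least as far in that direction. All 3 Mgll probe sets above the floor had this sign at each time, with log2 differences from 0.76 to 1.26 at 2 months and from 0.53 to 0.87 at 5 months. The probe set used may read more than 1 transcript, as its name ends in _s_at.

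Gpam encodes the mitochondrial glycerol-3-phosphate acyltransferase that opens the pathway. Its signals at 2 months were 6659 on the FFD+EGFRi array, 11828 on the FFD array and 7870 on the chow array. The 5-month arrays gave 11437 for FFD+EGFRi, 14033 for FFD and 10659 for chow. FFD was again highest in each study, and the log2 diet difference was 0.59 and then 0.40. The other Gpam probe set had log2 differences of 0.79 and 0.59, the same sign as the probe set used. Such sizes were common between the chow arrays, where 12.1% and 25.4% of genes differed at least as far in either direction.

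Agpat2 and Agpat3 encode acyltransferases that make phosphatidate from lysophosphatidate, and Agpat2 is the isoform whose loss causes congenital lipodystrophy in humans. Agpat2 read 5800.2 on the FFD+EGFRi array, 10582 on the FFD array and 4769 on the chow array at 2 months, with a diet difference of 2.22-fold. At 5 months it read 9312 on the FFD+EGFRi array, 7502 on the FFD array and 6921 on the chow array, with a diet difference of 1.08-fold. Only at 2 months did the FFD array stand above the other 2. Agpat3 read 2945 on the FFD+EGFRi array, 2759 on the FFD array and 1895 on the chow array at 2 months, and 2500.4, 2317 and 2075 on the FFD+EGFRi, FFD and chow arrays at 5 months. Its diet differences were 1.46-fold and 1.12-fold, and all 4 of its probe sets had that sign at both times.

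Lpin1, whose product is both a phosphatidate phosphatase and a coactivator of the nuclear receptor PPARalpha, is known in mouse liver as a gene induced by fasting. Its signal was 13521 on the FFD+EGFRi array, 3498 on the FFD array and 6414 on the chow array at 2 months. At 5 months it was 4823 on the FFD+EGFRi array, 4559 on the FFD array and 1606 on the chow array. The FFD array was thus the lowest of the 3 at 2 months and close to the FFD+EGFRi array, well above chow, at 5 months. The log2 diet difference was -0.87 at 2 months and 1.51 at 5 months, and the other Lpin1 probe set had -1.38 and 1.57. Chow itself differed 3.99-fold between the studies, with a log2 difference of -2.00 for 5 over 2 months, and 0.0357% of measured genes were as far down between these arrays. The opposite signs at the 2 times thus stand beside a chow level that itself differed between the studies.

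Lpin2, whose product is a phosphatidate phosphatase prominent in liver, read 7493 on the FFD+EGFRi array, 6783 on the FFD array and 7334 on the chow array at 2 months. The 5-month signals were 5925 on the FFD+EGFRi array, 11370 on the FFD array and 6000.2 on the chow array. At 2 months the 3 signals were close, and at 5 months the FFD array stood 1.89-fold above chow. Its 3 probe sets above the floor had log2 diet differences from 0.41 to 0.92 at 5 months and from -0.44 to -0.11 at 2 months.

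Dgat1 and Dgat2 encode the acyltransferases of the last step, from unrelated gene families, and mouse Dgat2 is needed for most triglyceride storage. Dgat1 read 960.5 on the FFD+EGFRi array, 978 on the FFD array and 978 on the chow array at 2 months, and 912, 921 and 818 on the FFD+EGFRi, FFD and chow arrays at 5 months. Dgat2 read 16577 on the FFD+EGFRi array, 15766 on the FFD array and 15703 on the chow array at 2 months, and 15843, 14456 and 17220.3 on the FFD+EGFRi, FFD and chow arrays at 5 months. Over all 6 arrays the lowest and highest signals of the probe sets used were 1.20-fold apart for Dgat1 and 1.19-fold apart for Dgat2. The other Dgat2 probe set read from 4019.6 on the 5-month chow array to 5512 on the 2-month FFD+EGFRi array. The Dgat1 probe set used has a name ending in _s_at, and the other Dgat1 probe set was above the floor on only 2 of the 6 arrays. Without replicates these values give no interval for a difference.

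**Figure D1:**
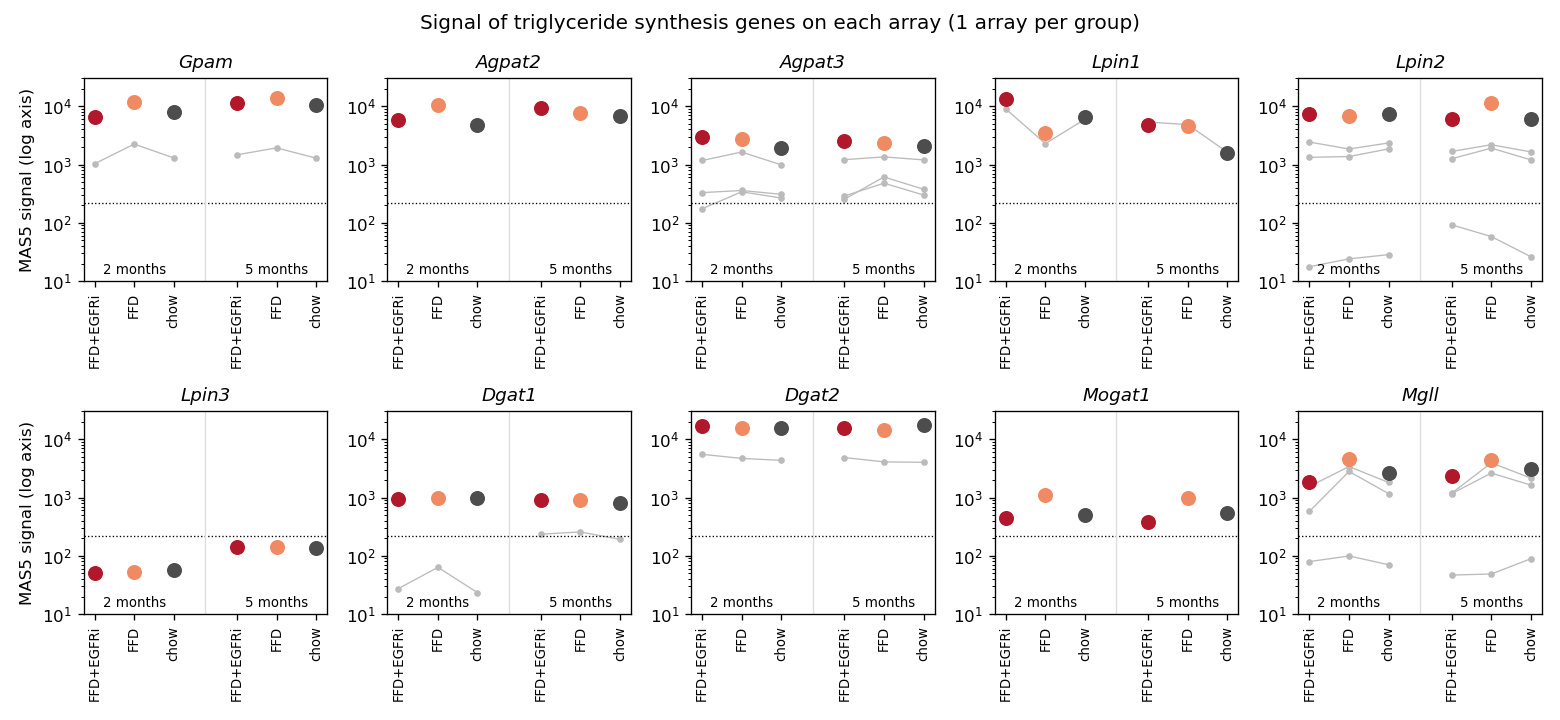
MAS5 signal (log axis) of the 10 genes on each of the 6 arrays, with FFD+EGFRi, FFD and chow from left to right in each study. Coloured points are the probe set used, grey points the gene's other probe sets, and the dotted line the floor of 221.4; Mogat1, Mgll and Gpam peak on the FFD array in both studies, and Lpin3 lies below the floor throughout.

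The 2-study comparison of diet with chow used a limma fit over all 6 arrays, with terms for treatment and study and 2 residual degrees of freedom. The studies stand in as replicates, although drug route and duration and the injections differed between them, and separate livers were pooled on each array. In this fit 0 of the 9 genes passed a Benjamini-Hochberg adjusted p of 0.05, against 0.0286% of all measured genes, and 3 had an unadjusted p under 0.05, against 9.87%. Mogat1 had a log2 difference of 1.01 with a standard error of 0.23 (limma adjusted p = 0.269), and Mgll had 0.64 with a standard error of 0.14 (limma adjusted p = 0.247). Each was higher with the diet in 2 of 2 studies.

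Markers of several cell types also differed between the FFD and chow arrays. The summed signal of 7 macrophage and Kupffer cell markers was 21064 and 26527 on the FFD arrays, against 10081 and 10075 on the chow arrays, and 7 and then 6 of the 7 were higher. The sum of 6 stellate cell markers was 7312 and 9487 on the FFD arrays, against 4207 and 3968 on the chow arrays, with Col1a1 below the floor on both chow arrays. Of the 6, 4 and then 6 were higher. The sum was carried mainly by Col3a1, at 3035 and 4072 on the FFD arrays against 863 and 590 on the chow arrays. Reln read 2493 and 2784 on the FFD arrays, against 2529 and 2426 on the chow arrays. The sum of 4 fat cell markers was 2010 and 2534 on the FFD arrays, against 1324 and 1231 on the chow arrays, with 2 of the 4, Adipoq and Lep, below the floor on each of them. Of the other 2, Fabp4 was higher and Retn lower at each time. The sum of 4 enterocyte markers was 10051 and 8782 on the FFD arrays, against 3008 and 3574 on the chow arrays, carried by Fabp2, with Vil1 below the floor on all 6 arrays. The macrophage, stellate, fat cell and enterocyte sums were thus higher on the FFD array in both studies. Hepatocyte markers summed to 311707 and 222469 on the FFD arrays, against 263493 and 290728 on the chow arrays, with 4 of 6 higher at 2 months and 6 of 6 lower at 5 months. The sum of 5 endothelial markers was 7371 and 7152 on the FFD arrays, against 6337 and 5742 on the chow arrays, and was thus also higher in both studies. That of 3 muscle markers was 748 and 289 on the FFD arrays, against 847 and 598 on the chow arrays. Neutrophil markers, 5 in number, summed to 1648 and 1762 on the FFD arrays, against 1724 and 2053 on the chow arrays. Of these 5, 3 at 2 months and 2 at 5 months were at or below the floor on each array. In pooled tissue RNA, a change in the number of cells of a type and a change in RNA per cell cannot be told apart. The part of these cells in the differences of Mogat1, Mgll, Gpam and the other genes was not tested.

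**Figure D2:**
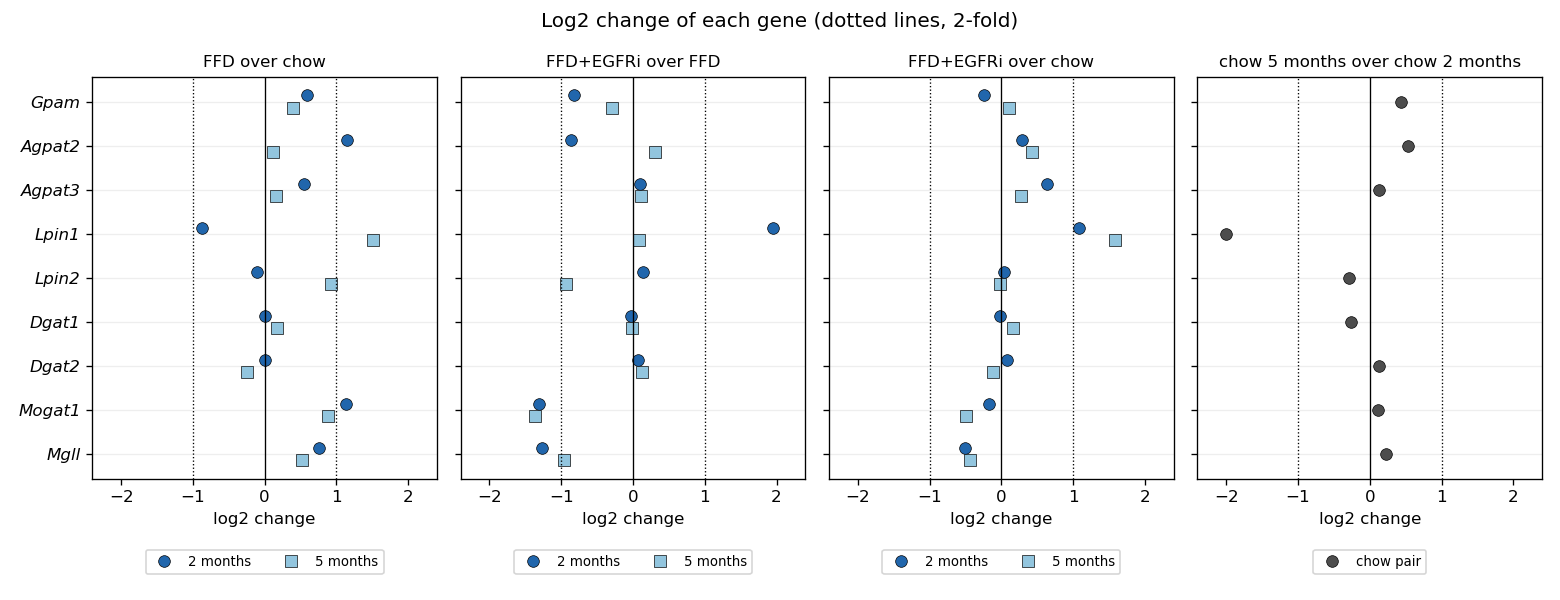
Log2 difference of the 9 measured genes for FFD over chow, FFD+EGFRi over FFD, FFD+EGFRi over chow, and 5-month over 2-month chow, with 2 months as circles and 5 months as squares and dotted lines at 2-fold. Mogat1 and Mgll lie right of 0 with the diet and left of 0 with the drug at both times, Dgat1 and Dgat2 stay near 0, and Lpin1 stands 2.00 below 0 between the chow arrays.

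The second comparison asked how canertinib changed these transcripts in mice on the fast-food diet. It shares the FFD array of each study with the diet comparison, so a high or low FFD signal moves both. The FFD+EGFRi arrays held less Mogat1, Mgll and Gpam transcript than the FFD arrays in both studies and less Agpat2 at 2 months. At 2 months they held more Lpin1. At 2 months 2 of the 9 genes, Mogat1 and Mgll, were at least 2-fold lower, against 3.26% of measured genes, and 1, Lpin1, was at least 2-fold higher, against 3.55%, with 6.81% in either direction. At 5 months 1 gene, Mogat1, was at least 2-fold lower, against 2.73%, and none was at least 2-fold higher, against 2.19%, with 4.93% in either direction. The median log2 difference of the 9 genes was -0.03 and then -0.01, beside 0.00 over all measured genes.

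Mogat1 was 2.48-fold lower on the FFD+EGFRi array at 2 months and 2.57-fold lower at 5 months, and 1.52% and then 0.958% of measured genes were at least as far in that direction. Mgll was 2.41-fold lower and then 1.94-fold lower. The 3 Mgll probe sets had log2 differences from -2.27 to -1.13 at 2 months and from -1.72 to -0.96 at 5 months, and thus all had that sign. In the limma fit over both studies Mgll was the only gene of the 9 to pass, and it fell by 1.11 on the log2 scale with a standard error of 0.14 (limma adjusted p = 0.0463, lower in 2 of 2 studies), against 0.715% of all measured genes passing. Mogat1 had the wider difference of -1.34 with a standard error of 0.23 and did not pass (limma adjusted p = 0.0851). In all, 3 of the 9 genes had an unadjusted p under 0.05, against 14.8% of measured genes. The Mgll call depended on the fit. It held in 3 of 8 alternative fits, with limma adjusted p from 0.0311 to 0.108 and log2 differences from -1.13 to -1.06 over these. Leaving out any 1 array gave limma adjusted p from 0.394 to 0.544 on 1 residual degree of freedom, with log2 differences from -1.25 to -0.98. Mogat1 was called in 0 of 9 such fits.

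Gpam, with log2 differences of -0.83 and -0.30, was lower on both of its probe sets at both times. Agpat2 was lower at 2 months with -0.87 and higher at 5 months with 0.31. Agpat3 had 0.09 and 0.11 on the probe set used, but its other 3 probe sets were lower with the drug at each time, down to -1.27 at 5 months, so its direction rests on the choice of probe set. Lpin2 had 0.14 at 2 months and -0.94 at 5 months, and all 3 of its probe sets above the floor were lower at 5 months. At 2 months these 3 ran from -0.04 to 0.39. Dgat1 had -0.03 and -0.01, and Dgat2 had 0.07 and 0.13. Between the chow arrays these were matched or passed by 86.7% and 89.2%, and by 76.1% and 63.8%, of measured genes. The other Dgat2 probe set had 0.23 and 0.25.

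Lpin1 was 3.87-fold higher on the FFD+EGFRi array than on the FFD array at 2 months and 1.06-fold higher at 5 months. Its other probe set gave 3.94-fold and 1.10-fold. At 2 months 0.515% of measured genes were at least as far in that direction. The FFD+EGFRi array at 2 months carried the highest Lpin1 signal of the 6 arrays, 8.42 times the lowest, which was chow at 5 months.

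**Figure D3:**
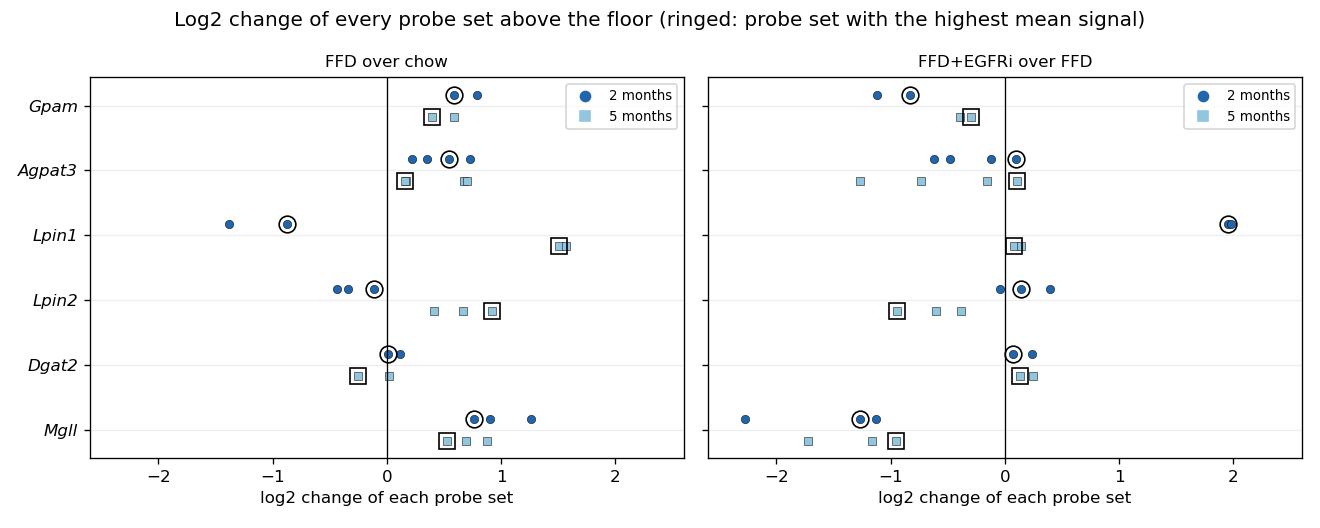
Log2 difference of every probe set that exceeded the floor on either array compared, for 6 genes with several probe sets, with 2 months as circles and 5 months as squares and the probe set used ringed. All probe sets of Mgll, Gpam and Lpin1 share a sign within each comparison and time, whereas the ringed Agpat3 probe set lies right of 0 with the drug and its other 3 lie left, where the point at -0.62 is a bound because its drug signal was below the floor.

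Markers of other cells also moved with the drug. The sum of 5 neutrophil markers was 12788 and 14759 on the FFD+EGFRi arrays, against 1648 and 1762 on the FFD arrays. With the drug 4 of the 5 were over 2-fold higher in both studies, against 3.55% and 2.19% of all measured genes. Camp was below the floor on all 6 arrays. The stellate cell sum was 4193 and 4097 on the FFD+EGFRi arrays, against 7312 and 9487 on the FFD arrays, and 5 and then 6 of the 6 markers were lower. The macrophage sum was 21154 and 24382 on the FFD+EGFRi arrays, against 21064 and 26527 on the FFD arrays. Single macrophage markers moved both ways under this sum, with 4 and then 5 of the 7 higher and 3 and then 2 lower. Marco had log2 differences of 2.67 and 1.92, and Cd74 had -2.03 and -1.95. Hepatocyte markers summed to 399211 and 304916 on the FFD+EGFRi arrays, against 311707 and 222469 on the FFD arrays, and 6 of 6 were higher at each time. The enterocyte sum was 1800.0 and 2085 on the FFD+EGFRi arrays, against 10051 and 8782 on the FFD arrays, again carried by Fabp2. The stellate and enterocyte sums were thus lower, and the neutrophil and hepatocyte sums higher, with the drug in both studies. The endothelial sum was 9353 and 7238 on the FFD+EGFRi arrays, against 7371 and 7152 on the FFD arrays. The part of these cells in the lower Mogat1, Mgll and Gpam signals was not tested.

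Set against chow, the FFD+EGFRi arrays differed most in Lpin1. At 2 months 1 of the 9 genes, Lpin1, was at least 2-fold higher, against 3.8% of measured genes, and at 5 months again 1, Lpin1, against 2.82%. None was at least 2-fold lower at either time, against 2.74% and 2.72%, with 6.53% and 5.54% in either direction. Lpin1 was 2.11-fold and then 3.00-fold higher than chow, while Mogat1 had log2 differences of -0.18 and -0.49, Mgll -0.51 and -0.43, and Gpam -0.24 and 0.10. Mgll was lower than chow on all 3 of its probe sets at both times. At 2 months the other Lpin1 probe set was 1.51-fold higher. The median of the 9 genes was 0.03 and then 0.10, beside 0.00 over all measured genes. In the limma fit 0 of the 9 passed, against 0.765% of measured genes, and 2, Mgll and Agpat3, had an unadjusted p under 0.05, against 15.6%. Lpin1 had a log2 difference of 1.33 with a standard error of 0.55 (limma adjusted p = 0.332).

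Other genes of the pathway were read from lists named by function. Of 5 measured genes for acyl-CoA and glycerol-3-phosphate supply, 0 were at least 2-fold different with the diet at either time, against 3.53% and 4.55% of all measured genes. With the drug 1 was at least 2-fold lower at 2 months and 0 at 5 months, against 3.26% and 2.73%. All 5 were higher with the diet at 5 months, in any amount, and 2 of 5 at 2 months, with medians of 0.39 and -0.24. Gpd1, the glycerol-3-phosphate dehydrogenase that provides the backbone, was the gene at least 2-fold lower with the drug at 2 months, at -1.07. It had -0.78 at 5 months. It is named although it falls outside the rule for named genes. Among 11 other acyltransferases, phosphatases and the remaining monoacylglycerol acyltransferase of the pathway, 0 were at least 2-fold different with diet or drug at either time. The shares of all measured genes were 3.53% and 4.55% with the diet and 6.81% and 4.93% with the drug. For these 11 genes no difference of that size was thus seen. Their medians were 0.05 and 0.19 with the diet and 0.12 and 0.13 with the drug. On the FFD+EGFRi array 1 was at least 2-fold higher than chow at each time, a different gene each time, against 3.8% and 2.82% of measured genes.

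On the branch that takes diacylglycerol or phosphatidate to phospholipid, 1 of 9 genes was at least 2-fold higher with the diet at 2 months and 0 at 5 months. The shares of all measured genes were 1.98% and 2.72%. With the drug 1 of 9 was lower by 2-fold or more at both times, against 3.26% and 2.73%. This was Chpt1, whose product joins diacylglycerol to phosphocholine. Chpt1 read 3405 on the FFD+EGFRi array, 8130 on the FFD array and 5306 on the chow array at 2 months, and 3560 on the FFD+EGFRi array, 8494 on the FFD array and 5891 on the chow array at 5 months. Its log2 differences with the drug were -1.26 and -1.25, and FFD was the highest of the 3 in each study. Of 9 genes for triglyceride breakdown and secretion, the drug arrays had 2 and then 3 lower by 2-fold or more, against 3.26% and 2.73% of all measured genes. They had 0 and then 1 higher by that much, against 3.55% and 2.19%. The medians were -0.71 and -0.48. The diet arrays had 2 and then 0 higher by that much, against 1.98% and 2.72%, and 0 lower, against 1.55% and 1.83%.

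G0s2, an inhibitor of adipose triglyceride lipase, was the gene of that list at least 2-fold lower with the drug at both times. It read 348 on the FFD+EGFRi array, 3300.2 on the FFD array and 1452 on the chow array at 2 months. At 5 months it read 1049 on the FFD+EGFRi array, 2205 on the FFD array and 2150 on the chow array. The FFD+EGFRi signal was the lowest of the 3 in each study, with log2 differences from FFD of -3.24 and -1.07 and from chow of -2.06 and -1.03. Ces1d, a carboxylesterase that acts on stored triglyceride, had log2 differences of -1.44 and -1.09 between FFD+EGFRi and chow.

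For Mogat1 and Lpin1, which had the widest ranges among the 9 genes, the genes of most similar pattern were sought among 2420 genes above the floor on all arrays with a range of at least 1 on the log2 scale. Likeness was Pearson's r of the log2 signal over the 6 arrays, which share treatments within each study, and it is a description only. Closest to Mogat1 were Gpx4, which reduces lipid hydroperoxides, with r = 0.996, the liver pyruvate kinase gene Pklr with 0.979, the fatty acid binding protein gene Fabp2 with 0.979, the annexin partner S100a10 with 0.976 and Ppcs, an enzyme of coenzyme A synthesis, with 0.969. Gpx4 read 7609 on the FFD+EGFRi array, 14480.1 on the FFD array and 8500.0 on the chow array at 2 months, and 6661, 14486 and 9089 on the FFD+EGFRi, FFD and chow arrays at 5 months. In each of these genes the FFD array was the highest of the 3 in both studies. Closest to Lpin1 were Rabl2 with r = 0.985, Stpg1 with 0.945, 9930021J03Rik with 0.944, 1700028E10Rik with 0.933 and the leptin receptor gene Lepr with 0.930. Lepr read 1993 on the FFD+EGFRi array, 557 on the FFD array and 826 on the chow array at 2 months, and 891, 630.2 and 459 on the FFD+EGFRi, FFD and chow arrays at 5 months.

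**Figure D4:**
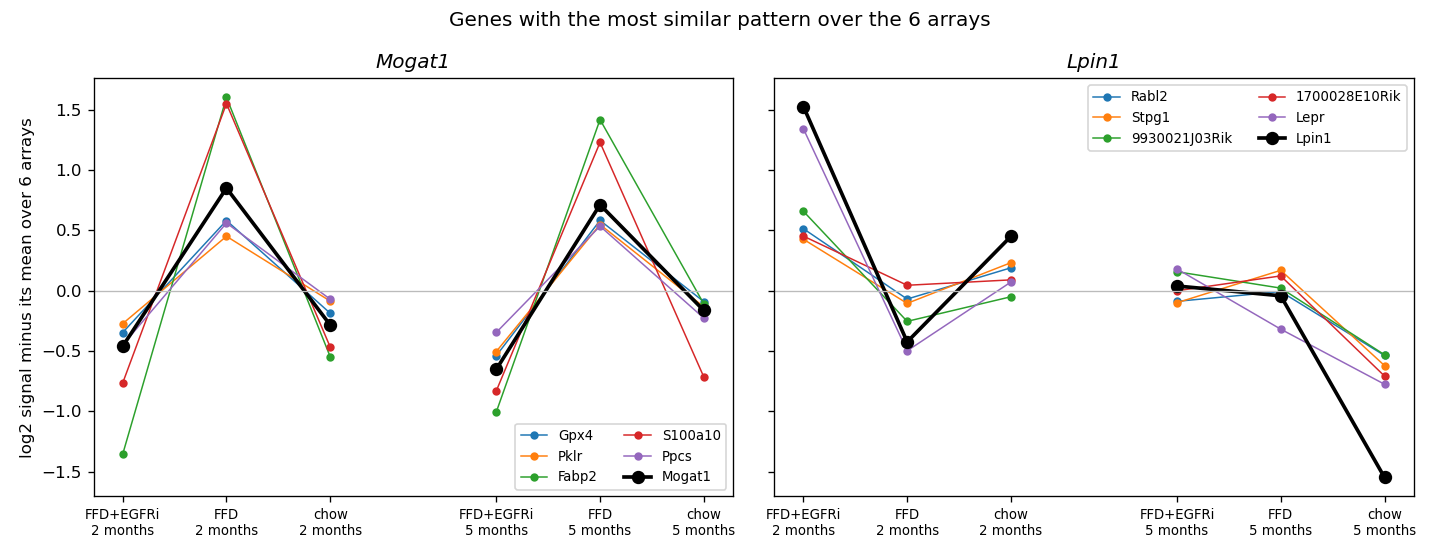
Log2 signal minus its mean over the 6 arrays for Mogat1 (left) and Lpin1 (right), in black, with the 5 genes of highest Pearson's r to each, in FFD+EGFRi, FFD and chow order within each study. The Mogat1 group peaks on both FFD arrays, and the Lpin1 group is highest on the 2-month FFD+EGFRi array and lowest on the 5-month chow array.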

How the data were processed

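Intensity is in MAS5 units (version not given in the sources used here), as deposited, per the submitters' processing notes. The scale is linear, and from the values the authors had scaled each array to a mean of 500.0 without its lowest and highest 2% of probe sets. Of 45101 probe sets, 34958 had 1 gene symbol in the platform annotation, 932 several and 9211 none, and symbols were updated through gene IDs. Each gene was read from its 1-symbol probe set of highest mean signal, raised to the floor of 221.4 and log2 transformed. The 13988 genes above the floor on at least 1 array formed the measured set.

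Differences of single arrays carry no test, and called means at least 2-fold. Limma (lmFit, eBayes with a variance trend) used all measured genes with Benjamini-Hochberg adjustment. The number of arrays limits the precision. The 10 genes, the lists and the tests were chosen with earlier results of these data known. All 10 genes are named. Of the other lists, genes at least 2-fold different in 1 direction at both times are named, at most 4 a list. Likeness is named for the 2 genes of widest range, 5 genes each. Some listed genes were not analysed here. Alternatives were quantile normalization, median centring, floors at the 40th or 60th percentile or none, the mean over probe sets, probe sets ending in _s_at, _x_at or _a_at left out, thresholds of 1.5-fold and 3-fold, limma without study term or trend and, added after seeing the data, limma without each array. Tools were Python 3.11.15, NumPy 2.4.6, SciPy 1.17.1, pandas 2.3.3, matplotlib 3.10.9, R 4.3.3 and limma 3.58.1.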

Additional observations from a re-analysis of the deposited data

Results flagged for a closer look

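Some differences, several of them close to 0, had opposite signs in the 2-month and the 5-month study. With 1 array per group, and no degree of freedom left for an interaction, none of these was tested, and values are given as the 5-month minus the 2-month log2 difference. For FFD over chow they were 2.38 for Lpin1 (1.51 and -0.87), 1.03 for Lpin2 (0.92 and -0.11) and -0.26 for Dgat2 (-0.25 and 0.01). For FFD+EGFRi over FFD they were 1.18 for Agpat2 (0.31 and -0.87) and -1.08 for Lpin2 (-0.94 and 0.14). For FFD+EGFRi over chow they were 0.34 for Gpam (0.10 and -0.24), -0.049 for Lpin2 (-0.02 and 0.03), 0.18 for Dgat1 (0.16 and -0.03) and -0.20 for Dgat2 (-0.12 and 0.08). Of 7 processing alternatives, some turned the sign of the near-0 values: 1 for Dgat2 in FFD over chow at 2 months, 2 and 3 for Lpin2 in FFD+EGFRi over chow at 2 and 5 months and 1 at each time for Dgat2 in the same comparison. The other Dgat2 probe set had 0.11 and 0.02 for FFD over chow and 0.35 and 0.27 for FFD+EGFRi over chow at 2 and 5 months, the same sign at both times. The floor alternatives could not change any value here, because these genes lay above the floor on every array. No alternative turned the sign of the Lpin1 or Gpam values, of Agpat2, or of Lpin2 in FFD over chow or FFD+EGFRi over FFD. For FFD+EGFRi over FFD, however, another Lpin2 probe set had -0.04 and -0.60 at 2 and 5 months, the same sign at both times. A further Lpin2 probe set had 0.39 and -0.38. The Lpin1 value stands beside a chow level 3.99-fold lower at 5 than at 2 months.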

How the results depend on the processing

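Counts of genes at least 2-fold different out of 9 were 2 and 1 for FFD over chow at 2 and 5 months, 3 and 1 for FFD+EGFRi over FFD, and 1 and 1 for FFD+EGFRi over chow. At 1.5-fold they were 5, 3, 5, 3, 2 and 1 in that order, and at 3-fold 0, 0, 1, 0, 0 and 1, where the threshold itself sets the shift. The share of all measured genes was taken at 2-fold only, so the 1.5-fold and 3-fold counts have no background beside them. After quantile normalization the 5-month counts were 2 for FFD over chow and 2 for FFD+EGFRi over FFD, and the 2-month count for FFD+EGFRi over chow was 0, as it was with the mean over probe sets, where the cause was not tested. The mean over probe sets gave 3 (2 higher and 1 lower) for FFD over chow at 2 months, and leaving out _s_at, _x_at and _a_at probe sets gave 2 of 8 for FFD+EGFRi over FFD at 2 months. The limma count for FFD+EGFRi over FFD, 1 gene, was 0 without the study term, without the variance trend, with median centring, with the floor at the 40th percentile, with the mean over probe sets and without _s_at, _x_at and _a_at probe sets, where Mgll has no probe set above the floor and 8 genes remained. The cause of the other losses was not tested. Leaving out each array in turn gave 0 to 0, with 1 residual degree of freedom. The limma counts for the other comparisons were 0 under every alternative run. Of 372 single-gene differences under 7 alternatives, 367 moved by less than 0.40, the SD of the log2 difference between the chow arrays over genes. The other 5, of Lpin2 and Agpat3, moved by more. No difference that was at least 2-fold turned its sign. The floor alternatives could not move any of these differences, because the 9 genes lay above the floor on every array. Mogat1 and Agpat2, with 1 probe set each, could also not move with the alternatives on probe sets. Many of the 367 were therefore fixed beforehand. Arrays were paired only by study, through the study term. No paired analysis by replicate number was possible because the labels give none and each group is 1 array.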

Other observations

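Chosen after its values were seen, Cept1, which encodes a choline and ethanolamine phosphotransferase that uses diacylglycerol, read 2885 on the FFD+EGFRi array, 2940.2 on the FFD array and 944 on the chow array at 2 months. At 5 months it read 3181 on the FFD+EGFRi array, 3278 on the FFD array and 3636 on the chow array. The 2-month chow array thus stood apart from the other 5, and the log2 diet difference was 1.64 at 2 months and -0.15 at 5 months.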
